A study of Mus musculus with 4 samples.

Results

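The 10 genes described here make, recycle or use nicotinamide adenine dinucleotide (NAD+): Cd38, Bst1, Nampt, Naprt, Nmnat1, Nmnat2, Nmnat3, Nnmt, Nadk and Qprt. They are 10 of the 22916 genes that the gene table names on the array, and every gene probe whose accession leads to 1 of these symbols was taken, which gave 13 probes of 56605. Of the genes, 7 have 1 probe each and 3 (Nmnat2, Nnmt and Nadk) have 2. The genes were chosen with measured values in view: the study had already selected its Cd38 probe on these same arrays, and the set around it was drawn up with earlier results known. Differences between the treatments are therefore given as a description of the 4 arrays and support no statement beyond them.

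NAD+ carries electrons in glycolysis and respiration and is also consumed as a substrate by glycohydrolases, sirtuins and poly(ADP-ribose) polymerases, all of which release nicotinamide. Most mammalian cells rebuild NAD+ from nicotinamide through NAMPT and the NMNAT enzymes, while NAPRT starts from nicotinic acid and QPRT from the tryptophan product quinolinic acid. In pancreatic islets CD38 is best known as the enzyme that makes cyclic ADP-ribose, a calcium-mobilizing messenger, and its level is reported to rise in ageing tissues.

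The question of the comparison was which genes change when islet cells of old mice are given MOTS-c, a short peptide encoded within the mitochondrial genome. Islets of 60-week-old C57BL/6 littermates, male by label, were freed with collagenase, handpicked and dispersed to single cells. The cells were then treated ex vivo at 10 μM for 24 h. The control group received a scrambled peptide (2 arrays, scrambled replicates 1 and 2) and the other group received MOTS-c (2 arrays, MOTS-c replicates 2 and 3). The 4 littermates were wild type as far as the labels say, the labels do not tie an array to a mouse, and no untreated or young animals are in the series, so every value below comes from cultured islet cells of old mice under a peptide.

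The arrays were one-color Agilent mouse gene expression arrays on 1 slide, with 61.6% to 65% of gene spots well above background and 0 saturated. The hormone genes of beta, alpha and delta cells (Ins1, Ins2, Gcg and Sst) were well above background on all 4. The labels call the mice male, yet the 7 probes of 4 Y-linked genes were well above background in 0 of 28 readings while Xist cleared its background everywhere. MOTS-c replicate 3 stood farthest from the rest. It differed by at least 1.5-fold from MOTS-c replicate 2 at 11.3% of the 35087 probes tested, against 6.39% between the scrambled arrays. Its shares were 10.7% from scrambled replicate 1 and 16.3% from scrambled replicate 2. For MOTS-c replicate 2 these shares were lower, at 7.86% and 6.8%, and both were under the 11.3% within its own group. By this measure the arrays did not separate by treatment. The number of arrays limits the precision throughout, since with 2 against 2 an exact two-sided permutation test cannot give a p below 0.333. The labels do not say whether arrays of a group came from separate cultures, so errors measure the spread between these arrays, which may be partly technical. In bulk RNA, fewer cells of a type and less RNA per cell cannot be told apart.

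Of the 13 probes, 11 (of 9 genes) were well above background on at least 2 arrays, the condition for entering the comparison, and 10 of them on all 4. Bst1, the glycohydrolase paralog of CD38, was not well above background on any array, and its spot lay at 0.767 to 1.23 times the local background. One of the 2 Nnmt probes (A_55_P2745682) was likewise below that mark on every array, at 1.18 to 1.41 times the local background. Neither has a measured difference. The Qprt probe and the other Nnmt probe passed with spots at most 2.59 times their local background, and their differences carry the widest errors of the set.

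**Figure D1:**
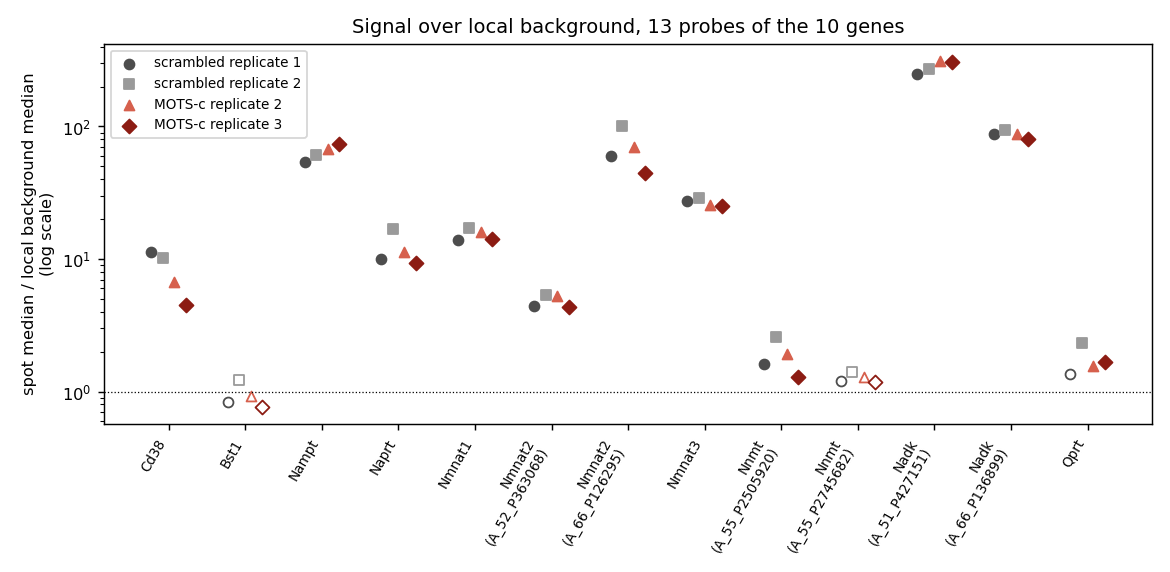
Spot median divided by the local background median (log scale) for each of the 13 probes on each of the 4 arrays; filled symbols are spots well above background, open symbols are not, and the dotted line marks a spot equal to its background. Bst1 and the probe A_55_P2745682 of Nnmt have open symbols on all 4 arrays, Qprt is open on scrambled replicate 1, and the symbols of a probe can be compared with each other but not with those of another probe.

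Cd38, the main NAD+ glycohydrolase of many tissues, had the lowest MOTS-c signal relative to scrambled of any member. Its single probe (A_66_P101835, 1 spot per array) gave quantile normalized log2 signals of 8.44 and 8.0 for scrambled replicates 1 and 2 and of 7.71 and 6.82 for MOTS-c replicates 2 and 3. Either MOTS-c signal was under either scrambled signal, so the groups did not overlap. The order from highest to lowest was scrambled 1, scrambled 2, MOTS-c 2, MOTS-c 3, but the neighbours across the treatment boundary, scrambled 2 and MOTS-c 2, were only 0.29 apart on the log2 scale, closer than the 0.44 between the scrambled arrays or the 0.89 between the MOTS-c arrays.

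The Cd38 means were 8.22 ± 0.31 for scrambled and 7.26 ± 0.63 for MOTS-c (SD of log2 signal, n = 2 each), a difference of -0.95 with a limma standard error of 0.35, or 1.94-fold lower. The 4 possible differences between a MOTS-c and a scrambled array ranged from -1.62 to -0.29, all of them negative. Before normalization the signals were 358 and 235 with scrambled peptide and 205 and 123 with MOTS-c, each with a Feature Extraction error of 10.0% to 10.3%, and the spot stood 11.3, 10.2, 6.71 and 4.47 times above its local background in the same order. The probe was therefore well measured on every array, and the spread within the groups was larger than the error of a spot. Of all 35087 probes, 309 (0.881%) were lower by as much as Cd38 or more.

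The size of the Cd38 difference rested to a large extent on MOTS-c replicate 3. Without that array it was -0.52, which is under 1.5-fold, and without MOTS-c replicate 2 it was -1.39. Leaving out scrambled replicate 1 or 2 gave -0.73 and -1.18.

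**Figure D2:**
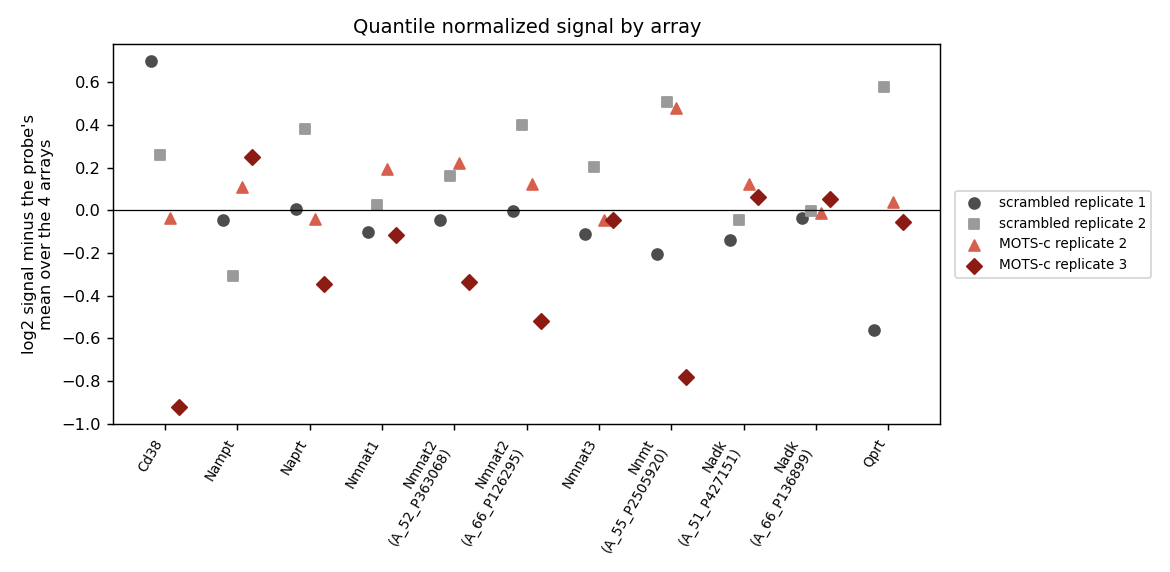
Quantile normalized log2 signal of the 11 probes that passed, on each of the 4 arrays, minus the mean of the probe over the arrays. Cd38 spans the widest range, from scrambled replicate 1 at the top to MOTS-c replicate 3 at the bottom, and the 2 treatments are separated at Cd38, Nampt, Naprt and probe A_51_P427151 of Nadk only.

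Cd38 and Bst1 are neighbours in the mouse genome. In the gene order of the RefSeq table of GRCm38.p6, Fbxl5 and Bst1 precede Cd38 and Fgfbp1 and Prom1 follow it. Of these only Fbxl5, an F-box protein of iron sensing, was measured, with differences of 0.06 on the log2 scale at both of its probes and overlapping groups. The single Bst1 probe and both probes of Fgfbp1 and of Prom1 were well above background on 0 of 4 arrays.

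Nampt, the rate-limiting enzyme of NAD+ salvage from nicotinamide, lay the other way. Its probe (A_51_P387235) read 11.12 and 10.86 with scrambled peptide and 11.28 and 11.41 with MOTS-c. The groups did not overlap, and the means of 10.99 ± 0.19 and 11.34 ± 0.10 (SD of log2 signal, n = 2 each) differed by 0.36 with a limma standard error of 0.15, or 1.28-fold higher with MOTS-c. Leaving out 1 array at a time kept the sign, with differences of 0.23 to 0.49.

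The start sites of these 2 genes differ in sequence, and their windows are shown because Cd38 and Nampt are the members with the largest difference in each direction. The 250 bases upstream of the RefSeq start site (GRCm38.p6, plus strand for both, 5′ to 3′, CG dinucleotides in capitals) lie at chr5:43868559-43868808 for Cd38 and chr12:32820085-32820334 for Nampt.
Cd38: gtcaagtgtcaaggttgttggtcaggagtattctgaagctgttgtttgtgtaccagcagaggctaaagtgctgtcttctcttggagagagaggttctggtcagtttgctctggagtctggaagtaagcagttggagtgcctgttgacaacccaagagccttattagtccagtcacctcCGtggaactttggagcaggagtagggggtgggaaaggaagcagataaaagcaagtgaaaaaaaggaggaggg
Nampt: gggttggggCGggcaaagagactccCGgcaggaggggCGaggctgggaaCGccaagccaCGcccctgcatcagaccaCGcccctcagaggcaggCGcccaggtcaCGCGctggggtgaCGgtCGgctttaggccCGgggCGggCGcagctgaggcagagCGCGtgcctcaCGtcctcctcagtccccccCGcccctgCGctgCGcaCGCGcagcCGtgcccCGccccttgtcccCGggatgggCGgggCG

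The Cd38 window holds 1 CG and is 48.8% G or C, and 18.8% of the 32851 mouse windows of that length have as few CG. The Nampt window holds 27 CG and is 75.6% G or C, and 92.4% of windows have as many or fewer. The median over all windows was 6. The 9 windows found for 7 members (none for Bst1, Naprt and Nnmt) ranged between these extremes, with Nmnat1 at 24 and 23 for its 2 start sites, Nadk at 4 and 18, Nmnat2 at 15, Nmnat3 at 9 and Qprt at 6.

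Short motifs were searched on both strands of the same windows, 5 in all, each on its own, so that matches may overlap. The GC box GGGCGG was in 5 of the 9 windows (Nampt, Nmnat3, Nmnat1 and Nadk) and in 32.7% of all windows. The antioxidant response element core TGACNNNGC was in 1, that of Qprt (10.2% of all windows), and the E-box CACGTG was in 1, a Nadk window (6.02%). TGACGT (6.47% of all windows) and the TATA box letters TATAAA (12.4%) were in 0 of the 9. The Cd38 window matched none of the 5. A match is a description of letters and not of a bound site.

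The NMNAT enzymes join nicotinamide mononucleotide to ATP, the last step of salvage, in different compartments of the cell. Nmnat1, the nuclear enzyme, read 8.89 and 9.01 with scrambled peptide and 9.18 and 8.87 with MOTS-c. The treatments overlapped, with a difference of 0.08 ± 0.16 (limma SE, log2). Nmnat3, the enzyme usually placed in mitochondria, read 9.57 and 9.88 and then 9.64 and 9.63, a difference of -0.09 ± 0.16 (limma SE, log2). The MOTS-c arrays fell between the scrambled ones at this gene.

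Nmnat2, the Golgi-associated enzyme needed for axon survival, has 2 probes. The brighter (A_66_P126295) read 11.28 and 11.68 with scrambled peptide and 11.40 and 10.76 with MOTS-c, and the other (A_52_P363068) read 7.14 and 7.34 and then 7.41 and 6.85. Both had MOTS-c replicate 3 as the lowest array and overlapping groups. The differences were -0.40 ± 0.27 and -0.11 ± 0.23 (limma SE, log2) at the brighter and the dimmer probe. The brighter probe gave -0.08 without MOTS-c replicate 3 and -0.72 without MOTS-c replicate 2.

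Naprt, which feeds nicotinic acid into NAD+, read 8.53 and 8.91 with scrambled peptide and 8.48 and 8.18 with MOTS-c. The groups did not overlap, although scrambled 1 and MOTS-c 2 were almost level. The difference was -0.39 with a limma standard error of 0.20, or 1.31-fold lower with MOTS-c, and -0.58 to -0.20 when 1 array at a time was left out.

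Qprt, the entry from tryptophan breakdown, read 3.94 and 5.07 with scrambled peptide and 4.54 and 4.44 with MOTS-c. Scrambled replicate 1 was not well above background at this probe, and the MOTS-c arrays lay between the scrambled ones. The difference of -0.02 had a limma standard error of 0.39 on the log2 scale.

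Nnmt, which methylates nicotinamide and so takes it out of salvage, read 5.02 and 5.73 with scrambled peptide and 5.70 and 4.44 with MOTS-c at its measured probe (A_55_P2505920). The 1.26 between the MOTS-c arrays was far larger than the difference of -0.30 ± 0.49 (limma SE, log2) between treatments. The sign turned with the array left out, from -0.92 to 0.33.

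Nadk, the cytosolic kinase that turns NAD+ into NADP+, varied little between the arrays. Probe A_51_P427151 read 13.12 and 13.21 with scrambled peptide and 13.38 and 13.32 with MOTS-c, and probe A_66_P136899 read 11.62 and 11.66 and then 11.65 and 11.71. The first probe separated the treatments and the second did not. The differences were 0.18 ± 0.12 and 0.04 ± 0.12 (limma SE, log2).

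**Figure D3:**
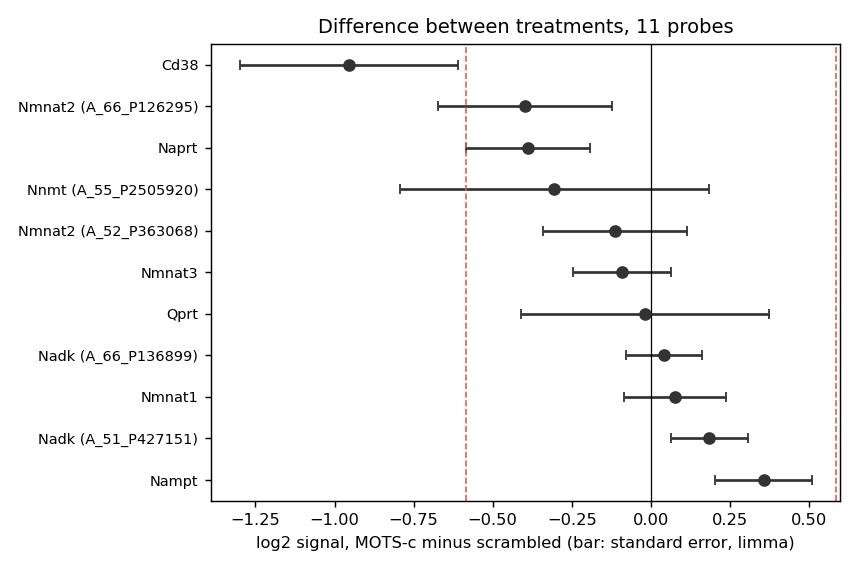
Difference in log2 signal between MOTS-c and scrambled for the 11 probes that passed (points) with the limma standard error (bars); dashed lines mark 1.5-fold in either direction. Cd38 at -0.95 is the one point beyond a dashed line, Nampt at 0.36 is the highest, and the bars of Nnmt and Qprt are the widest.

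Counted over the 11 probes, 7 were lower and 4 higher with MOTS-c, with a median of -0.09 on the log2 scale against 0.01 over all 35087 probes. One probe, that of Cd38, was lower by at least 1.5-fold, where 3.43% of all probes were, and 0 were higher by that much, where 1.81% of all probes were. The treatments did not overlap in the downward direction at 2 probes (Cd38 and Naprt), against 18.6% of all probes, and in the upward direction at 2 (Nampt and 1 Nadk probe), against 19.4%. Since the members were selected with this comparison known, nothing is read from these shares.

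In limma with Benjamini-Hochberg adjustment over all probes, 0 of the 11 passed an adjusted p of 0.05, and 0% of all probes did. The lowest adjusted p was 0.615 among the members, at Cd38, and 0.474 among all probes. At an unadjusted p under 0.05 limma kept 1 member, Cd38, where 7.85% of all probes passed. The methods' t-test kept 0 members and 2312 of all probes at that level, and limma with an intensity trend kept 2 members, Cd38 and Nampt, and 2945 of all probes. The methods' t-test passed 1 of all probes after adjustment, which was no member, and limma with a trend passed 0.

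**Figure D4:**
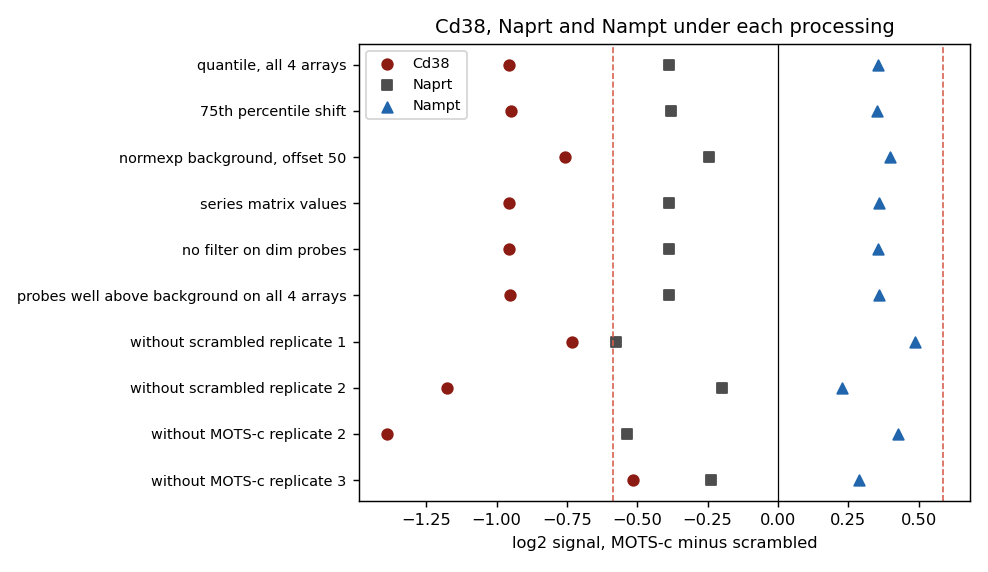
Difference in log2 signal between MOTS-c and scrambled for Cd38, Naprt and Nampt under each way of processing the arrays and with each array left out; dashed lines mark 1.5-fold. Cd38 lies at or beyond -0.73 in every row except the last, without MOTS-c replicate 3, where it is -0.52, and the signs of all 3 genes are the same in every row.

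The array profile of Cd38 was shared by genes outside NAD+ metabolism. Over the 4 arrays, among 21817 named probes well above background on all of them, the 5 nearest by Euclidean distance between mean-centred log2 signals were Cfap43, a protein of cilia (0.145), Pdgfra, a platelet-derived growth factor receptor (0.182), Pi16, a secreted peptidase inhibitor (0.185), Akr1b7, an aldo-keto reductase (0.186), and Best3, a bestrophin channel (0.190). Their differences between treatments ran from -1.05 to -0.82 on the log2 scale. The median distance over all probes was 1.18. Of the 7 other NAD+ genes that could be compared, the closest was Nmnat2 at 0.833 and the farthest Nampt at 1.5. A likeness over 4 points is a description, and many probes can match a falling order of 4 values.

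Signals of some other cell types moved in the same comparison. Of the 9 acinar markers 5 were measured, and their summed signal (linear scale, brightest probe of each gene, led by the brightest genes) was 4555 and 5075 with scrambled peptide against 3174 and 2466 with MOTS-c, while Cpa1, Pnlip, Prss2 and Amy2a5 were not well above background. Of the 9 mesenchymal markers 3 were measured, Acta2, Col1a2 and Pdgfra, with sums of 5622 and 5126 against 4845 and 4823. Nearly all of that sum was Acta2, which differed by only -0.14 on the log2 scale. Col1a2 overlapped between the treatments, and the dim Pdgfra differed by -1.045. The defining genes Col1a1, Col3a1, Pdgfrb, Lum, Dcn and Rgs5 were not well above background on enough arrays. The acinar and mesenchymal sums were both lower on both MOTS-c arrays, as were Cd38 and 18.6% of all single probes. Single acinar markers went both ways, with Cela1 (-0.76) lower and Ctrb1 (0.33) higher on both MOTS-c arrays, on the log2 scale.

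CD38 is also a surface protein of immune cells. Of the 10 myeloid markers 5 were measured, with sums of 10957 and 12118 with scrambled peptide against 9762 and 12027 with MOTS-c, and Ptprc, the pan-leukocyte gene, was among those not well above background. The myeloid sums, led by Itgam and Csf1r, overlapped between the treatments, and so did Itgam, Csf1r and Cd68 singly. C1qa, a complement gene of macrophages, was lower on both MOTS-c arrays, by -0.67 on the log2 scale. The dim Cd14 read 3.90 and 4.06 with scrambled peptide and 4.27 and 4.70 with MOTS-c. It was well above background on only 2 arrays, the fewest that the filter allows, so no direction is read from it. The sums of the measured B and plasma (1 gene), T (3 genes), endothelial (2 genes) and duct cell (3 genes) markers also overlapped between the treatments. The part of any cell type in the Cd38 difference was not tested.

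Within the endocrine cells, the 4 measured alpha cell markers were all higher on both MOTS-c arrays, by 0.05 to 0.84 on the log2 scale. The 9 measured beta cell markers had a median difference of -0.05, from -1.33 at Slc2a2, the glucose transporter, to 0.16. The Slc2a2 probe was dim and well above background on only 3 arrays. It read 5.23 and 5.26 with scrambled peptide and 3.81 and 4.02 with MOTS-c. The next lowest beta cell marker was Pdx1 at -0.28.

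The rest of NAD+ metabolism was followed through 6 lists of 67 other genes. Probes were found for 65 (none for Nnt and Ryr3) and 55 were measured, each through its brightest probe. Of the 55, 0 were lower by at least 1.5-fold and 1 was higher, against 3.43% and 1.81% of all probes. The treatments did not overlap for 14 in each direction, against 18.6% of all probes lower and 19.4% higher, and overlapped for 27. The median difference was -0.01 on the log2 scale. In limma 0 passed after adjustment over all probes, and 2, Tiparp and Macrod2, had an unadjusted p under 0.05, against 7.85% of all probes.

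**Figure D5:**
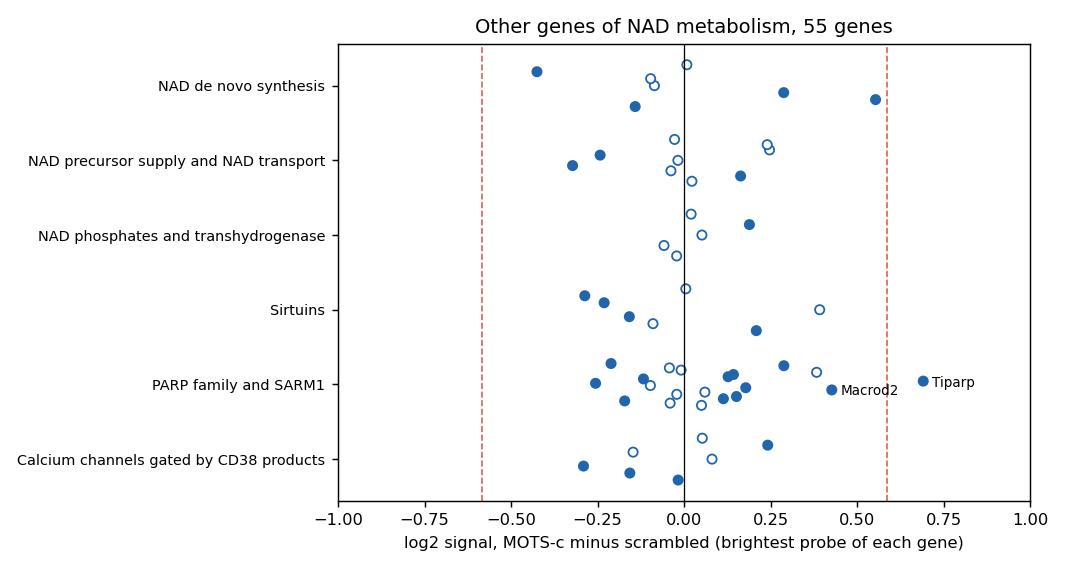
Difference in log2 signal between MOTS-c and scrambled for the 55 measured genes of the 6 lists, 1 point a gene by its brightest probe; filled points are genes at which the treatments did not overlap, and dashed lines mark 1.5-fold. Tiparp at 0.69 is the one gene beyond a dashed line, and the other points lie between -0.43 and 0.55.

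The 20 genes of the list of the PARP family and SARM1 were all measured, with a median of 0.05. Most of them either attach ADP-ribose to proteins, using NAD+, or remove it again. Tiparp, a mono-ADP-ribosyltransferase induced by the aryl hydrocarbon receptor, read 10.26 and 9.92 with scrambled peptide and 10.57 and 10.98 with MOTS-c. The groups did not overlap, and the difference was 0.69 ± 0.21 (limma SE, log2; adjusted p = 0.563 in limma) at its 1 probe. Macrod2, which removes mono-ADP-ribose, read 10.59 and 10.65 and then 11.09 and 11.001, a difference of 0.43 ± 0.12 (limma SE, log2; adjusted p = 0.544 in limma). Its 3 probes gave 0.27 to 0.43. Parp1, the main DNA-damage polymerase, differed by 0.15, and the brightest gene of the list, Tnks2, by 0.05.

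The 7 sirtuins, which remove acyl groups from proteins at the cost of NAD+, were all measured and ran from -0.29 (Sirt5) to 0.39 (Sirt1), with a median of -0.09. Without overlap of the treatments, 3 of them were lower (Sirt3 and Sirt5 of the mitochondria and Sirt6 of the nucleus) and Sirt7 (0.21), the brightest, was higher, against 18.6% and 19.4% of all probes. At Sirt1 the treatments overlapped.

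Of the 12 genes of synthesis from tryptophan 7 were measured, and the early and branch enzymes Ido1, Ido2, Kmo, Kynu and Acmsd were not well above background. The measured ones ran from -0.43 (Tdo2) to 0.55 (Kyat3), with Nadsyn1, the last enzyme of the route and the brightest, at -0.14. Of the 12 genes of precursor supply and NAD+ transport 9 were measured, from -0.32 (Slc29a1, a nucleoside transporter) to 0.25. The mitochondrial NAD+ carrier Slc25a51, the brightest, read 14.60 and 14.48 with scrambled peptide and 14.54 and 14.59 with MOTS-c, a difference of 0.02. The 5 measured genes of NAD+ phosphates and repair lay within -0.06 and 0.19, with the epimerase Naxe, the brightest, at -0.02.

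The last list held 10 genes of calcium channels opened by the products of CD38 or of proteins that bind these channels or products, and 7 were measured. They ran from -0.29 (Fkbp1b, a ryanodine receptor partner) to 0.24 (Tpcn2, an endolysosomal channel), with a median of -0.02. Ryr2, the ryanodine receptor measured here, differed by 0.05, while Ryr1 and Trpm2 were not well above background. The brightest of the list, Mcoln1, differed by -0.02.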

How the data were processed

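RNA of 4 samples was hybridized to one-color Agilent arrays. The authors amplified and Cy3-labeled 100 ng of total RNA per sample and read the spots with Feature Extraction (version 11.0.1.1), and the deposited intensity values (gProcessedSignal) are background corrected within an array but not normalized between arrays. The deposited flags (a score of 0 or 1 per spot) were used for control, outlier and background status. The authors' series table repeats these intensities after rounding, with ratios to the scanner values of 0.995 to 1.005.

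Groups came from the treatment label and replicate numbers from the titles. Control and outlier spots were left out, spots of a probe averaged on the log2 scale, probes kept if they cleared background on 2 or more of the 4 arrays, and the log2 intensity of the deposited signals quantile normalized. The methods filter on a Flag A that is not defined in the sources used here, and the background flag stands in for it. limma 3.58.1 (R 4.3.3) was fitted to 35087 probes with 2 residual and 2.64 prior degrees of freedom, and p-values were adjusted by Benjamini-Hochberg over all of them. The fit was tested on simulated data.

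Symbols came from the RefSeq gene table of GRCm38.p6, matched by accession, and upstream windows from RefSeq promoters of the same assembly. The array is annotated on another build, so no probe coordinates are given. Named are every probe of the 10 members, genes of the wider lists at 1.5-fold or an unadjusted p under 0.05 or the brightest of a list, and the 5 probes nearest to Cd38. List extremes, single cell type markers, Parp1, Ryr2, the sirtuins without overlap, the neighbours of Cd38 and the sex-linked genes were named after their values were seen. The members and lists were chosen with earlier results of these data known. Adprs was matched through its older symbol Adprhl2. Results of 1 marker list and of some single markers are not reported here.

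Alternatives were a 75th percentile shift, normexp with an offset of 50 (on median rather than mean spot signals), the authors' rounded values, no filter, a filter of 4 of 4 arrays, each array left out, limma with a trend, the methods' t-test, and the mean over a gene's probes.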

Additional observations from a re-analysis of the deposited data

How the results depend on the processing

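Cd38 kept its sign in every alternative run, from -1.39 to -0.52 on the log2 scale, the extremes being those without MOTS-c replicate 2 and without MOTS-c replicate 3, and normexp gave -0.76. The count of members at an adjusted p under 0.05 was 0 under every alternative. Without a filter on dim probes, 2 member probes were lower by at least 1.5-fold (Cd38 and Bst1, the latter not above background), 1 wider NAD+ gene was lower (Trpm2) and 3 were higher (Tiparp, Kmo and Ryr1). With 1 array left out at a time, where the lone array of a group is assumed to vary like the others, the member probes lower by at least 1.5-fold numbered 0 to 3: 0 without MOTS-c replicate 3, and 3 (Cd38, Nnmt and Nmnat2) without scrambled replicate 1 or MOTS-c replicate 2. The wider NAD+ genes lower numbered 0 to 1 (Tdo2, without MOTS-c replicate 3), and those higher 0 to 4, with 0 without scrambled replicate 2 or MOTS-c replicate 3, 2 without scrambled replicate 1 (Tiparp and Kyat3) and 4 without MOTS-c replicate 2 (Sirt1, Tiparp, Kyat3 and Parp14). Of the 11 measured member probes, 6 kept their sign whichever array was left out and 5 did not (Nmnat1, Nmnat3, Nnmt, Qprt and the dimmer Nmnat2 probe). The dimmer Nmnat2 probe alone changed sign under another processing, to 0.02 with normexp. The cause of these shifts was not tested. No paired analysis was possible because the groups share only 1 replicate number in their labels. All arrays share 1 slide, so no slide block was run. Signal over background limits Qprt, Nnmt and Bst1, and a single spot per array limits every member.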
